A study of Mus musculus with 42 samples.

Results

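The expression of 10 Toll-like receptor genes was examined in MC38 tumors treated with aPD1 with or without blockade of GM-CSF and IL2RB. The genes were chosen by name, as the rows for Tlr1, Tlr2, Tlr4, Tlr5 and Tlr6, whose products act at the cell surface, and for Tlr3, Tlr7, Tlr8, Tlr9 and Tlr13, whose products act in endosomes. All 10 were among the 26811 genes of the count matrix, and all 10 were among the 16932 genes that passed the filter on low counts.

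Toll-like receptors are germline-encoded sensors of microbial molecules and of some molecules released by damaged cells. The surface receptors bind bacterial products such as lipopeptides (Tlr2 paired with Tlr1 or Tlr6), lipopolysaccharide (Tlr4) and flagellin (Tlr5), whereas the endosomal receptors bind nucleic acids, which are double-stranded RNA for Tlr3, single-stranded RNA for Tlr7, RNA degradation products for Tlr8, unmethylated CpG DNA for Tlr9 and bacterial ribosomal RNA for Tlr13. Most of them signal through the adaptor Myd88 to NF-kB and interferon regulatory factors, Tlr3 signals through Ticam1 (TRIF), and macrophages and dendritic cells carry many of them.

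MC38 is a mouse colon carcinoma line of C57BL/6 origin. Female CC75×B6 mice (CC075/UncJ x C57BL/6J F1, 8 to 12 weeks old), the offspring of a Collaborative Cross strain and C57BL/6J, received MC38 cells under the skin. From engraftment they were given aGM-CSF (100 μg), aIL2RB (200 μg) or the matching isotype antibodies every 3 days, and at a tumor volume of 75 to 110 mm3 aPD1 (200 μg) or its isotype control was injected once, with collection 48 h later. GM-CSF is a myeloid growth factor, IL2RB is the receptor chain shared by IL-2 and IL-15 on T and NK cells, and PD1 is an inhibitory receptor of activated T cells. There were 5 isotype tumors, from mice given only control antibodies, 6 aPD1 tumors, from mice given aPD1 and controls of the blocking antibodies, 9 tumors given aPD1 + aGM-CSF, 11 given aPD1 + aIL2RB and 11 given all 3 antibodies (aPD1 + aGM-CSF + aIL2RB), with 1 tumor per library. No group received a blocking antibody without aPD1, so the action of either blocking antibody on its own was not measured. Total counts ranged from 15109227 to 24101674 in 41 tumors and were 7155486 in aPD1 + aGM-CSF + aIL2RB replicate 4. The tumors also fell into 2 sets along their replicate numbers, which the labels do not name. Of the lower numbers, the first set took isotype 1 and 2, aPD1 1 to 3, aPD1 + aGM-CSF 1 to 5, and 1 to 6 of each group given aIL2RB. The second set was higher than the first for 2309 genes and lower for 1943, so the number of receptors called in each comparison is also given within the sets. A single tumor, aPD1 + aGM-CSF + aIL2RB replicate 1, was the highest of its group for 9 of the 10 receptors, and the numbers of receptors and list genes called against aPD1 in that group, with some of its levels, are also given without it. Of the epithelial markers, which a carcinoma would carry, Epcam (median 0.324 CPM), Krt8 (0.342 CPM) and Krt18 (0.355 CPM) were near 0 and Cdh1 (3.14 CPM) was low. The libraries are from whole tumors, in which fewer cells of a type and less RNA per cell cannot be told apart, nor can transcripts of tumor cells and host cells.

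The genes lie on 7 chromosomes of GRCm38, and 2 pairs are close neighbours. Tlr1 (ENSMUSG00000044827, chr5:64924679-64933563, minus strand) and Tlr6 (ENSMUSG00000051498, chr5:64952031-64960097, minus strand) are 18467 bases apart. Tlr7 (ENSMUSG00000044583, chrX:167304929-167330558, minus strand) and Tlr8 (ENSMUSG00000040522, chrX:167242696-167264329, minus strand) are 40599 bases apart. Tlr13 (ENSMUSG00000033777, chrX:106143204-106160493, plus strand) is on the same chromosome. The others are Tlr2 (ENSMUSG00000027995, chr3:83836272-83841767, minus strand), Tlr3 (ENSMUSG00000031639, chr8:45395665-45411080, minus strand), Tlr4 (ENSMUSG00000039005, chr4:66827584-66930284, plus strand), Tlr5 (ENSMUSG00000079164, chr1:182954788-182976044, plus strand) and Tlr9 (ENSMUSG00000045322, chr9:106222598-106226883, plus strand). None of the 10 overlaps another gene of the matrix.

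Tlr1 and Tlr6 share coding sequence, which bears on how well their counts can be kept apart. The coding sequences of 2385 bases (Tlr1) and 2418 bases (Tlr6) hold 612 words of 30 bases in common. The longest identical stretch, of 229 bases, spans Tlr1 coding positions 1468 to 1696 and Tlr6 positions 1507 to 1735, counted from the first base of the start codon. It is printed here in lower case because no part of it is singled out.
Tlr1 and Tlr6 shared coding stretch: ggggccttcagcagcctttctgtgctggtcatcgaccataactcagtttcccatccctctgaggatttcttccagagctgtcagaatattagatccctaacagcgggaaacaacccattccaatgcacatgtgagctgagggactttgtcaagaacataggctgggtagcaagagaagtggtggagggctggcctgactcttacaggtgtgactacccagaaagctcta
Reads from such stretches were divided between the genes by the authors' estimation. The counts of Tlr1 and of Tlr6 were fractional in each of 42 tumors, but added up to a whole number in 42 of 42 (tolerance 0.01), and Tlr6 took 23.4% to 43.3% of the sum (median 29.1%). The values of these genes are therefore less certain than those of Tlr7 and Tlr8, whose longest identical coding stretch was 13 bases.

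Promoter sequence is shown for Tlr9, Tlr8 and Tlr13, endosomal receptors that rose with aPD1, and for Tlr2 and Tlr3, which hold matches of the same motifs but differed in response. Of the 10 genes, 8 had an entry among the RefSeq promoters (GRCm38.p6), and Tlr4 and Tlr7 did not. Each run is the part of the 250 bases before the RefSeq start that lies outside the annotated exons, 5′ to 3′ on the strand of the gene. The Tlr3 run lies inside the annotated Tlr3 gene (chr8:45395665-45411080), between its exons, and is a promoter only relative to the RefSeq start. Capitals mark the fixed letters of motif matches, read on both strands, for AP-1 (TGANTCA), NF-kB (GGGA, any 4 bases, then CC), IRF (AANNGAAA) and ETS (GAGGAA).
Tlr9, chr9:106222348-106222597, plus strand: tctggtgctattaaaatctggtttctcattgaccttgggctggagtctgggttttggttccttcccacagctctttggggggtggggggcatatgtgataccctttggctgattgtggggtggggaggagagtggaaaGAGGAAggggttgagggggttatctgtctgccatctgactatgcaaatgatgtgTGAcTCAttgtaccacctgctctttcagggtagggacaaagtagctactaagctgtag
Tlr8, chrX:167264330-167264579, minus strand: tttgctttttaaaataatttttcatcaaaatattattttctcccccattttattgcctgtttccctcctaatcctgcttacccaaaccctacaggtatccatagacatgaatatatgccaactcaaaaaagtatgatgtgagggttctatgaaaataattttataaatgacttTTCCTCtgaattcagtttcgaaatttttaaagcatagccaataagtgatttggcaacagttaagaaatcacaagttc
Tlr13, chrX:106143025-106143203, plus strand: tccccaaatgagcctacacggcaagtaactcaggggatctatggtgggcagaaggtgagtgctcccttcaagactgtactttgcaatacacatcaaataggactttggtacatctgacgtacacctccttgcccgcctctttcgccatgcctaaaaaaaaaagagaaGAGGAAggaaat
Tlr2, chr3:83841768-83841858, minus strand: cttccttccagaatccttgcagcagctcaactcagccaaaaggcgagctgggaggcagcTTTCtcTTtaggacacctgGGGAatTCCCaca
Tlr3, chr8:45410381-45410452, minus strand: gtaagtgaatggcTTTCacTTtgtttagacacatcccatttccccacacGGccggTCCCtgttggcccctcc
The Tlr9 run holds 1 AP-1 and 1 ETS match, the Tlr8 and Tlr13 runs hold 1 ETS match each, and the Tlr2 and Tlr3 runs hold 1 NF-kB and 1 IRF match each. In the full 250 bases, AP-1 letters were found in 1 of the 8 genes, NF-kB letters in 3, IRF letters in 4 and ETS letters in 4. Of the 32851 mouse promoters searched, 6.75%, 17.6%, 21.3% and 23.3% hold them. A gene was counted if any of its entries matched, whereas the shares are by entry. Tlr1 and Tlr6, which are both among the 4 with IRF letters, had more than a single entry, so the counts and shares are not strictly alike. The motifs were chosen after the promoters were seen. A match is a description of the letters and not of a bound site.

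In isotype tumors, the order of the receptors by level per exon length was led by Tlr2 and Tlr13. In CPM (counts scaled to library totals that were adjusted by TMM factors) per kb of exon, Tlr2 was at 14.99 ± 2.38 (SD, n = 5) and Tlr13 at 13.5 ± 3.69, which do not differ beyond their spread. Tlr3 followed at 7.36 ± 0.798 CPM per kb and Tlr8 at 5.94 ± 1.89, again within the spread of Tlr8. Tlr7 (5.11 ± 0.663), Tlr9 (5.05 ± 0.556), Tlr1 (5.02 ± 0.638) and Tlr4 (4.57 ± 1.09 CPM per kb) formed a run of neighbours that overlapped. Tlr6 (1.73 ± 0.266) and Tlr5 (0.330 ± 0.117 CPM per kb) were the lowest, and each stood below its neighbour by more than their SDs.

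In aPD1 tumors Tlr2 (22.5 ± 3.37 CPM per kb, SD, n = 6) and Tlr13 (20.7 ± 5.02) again led the order. Tlr8 (13.2 ± 4.56), Tlr9 (13.1 ± 5.58) and Tlr7 (10.6 ± 2.99 CPM per kb) came next, and neither they nor Tlr7 and the next receptor, Tlr1, were apart by more than their spread. Tlr1 (7.78 ± 1.49), Tlr3 (7.03 ± 1.04) and Tlr4 (6.60 ± 1.13 CPM per kb) overlapped as well, and Tlr3, the third in the order of isotype tumors, was the seventh here. Tlr6 (2.71 ± 0.649) and Tlr5 (0.662 ± 0.310 CPM per kb) remained at the bottom.

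**Figure D1:**
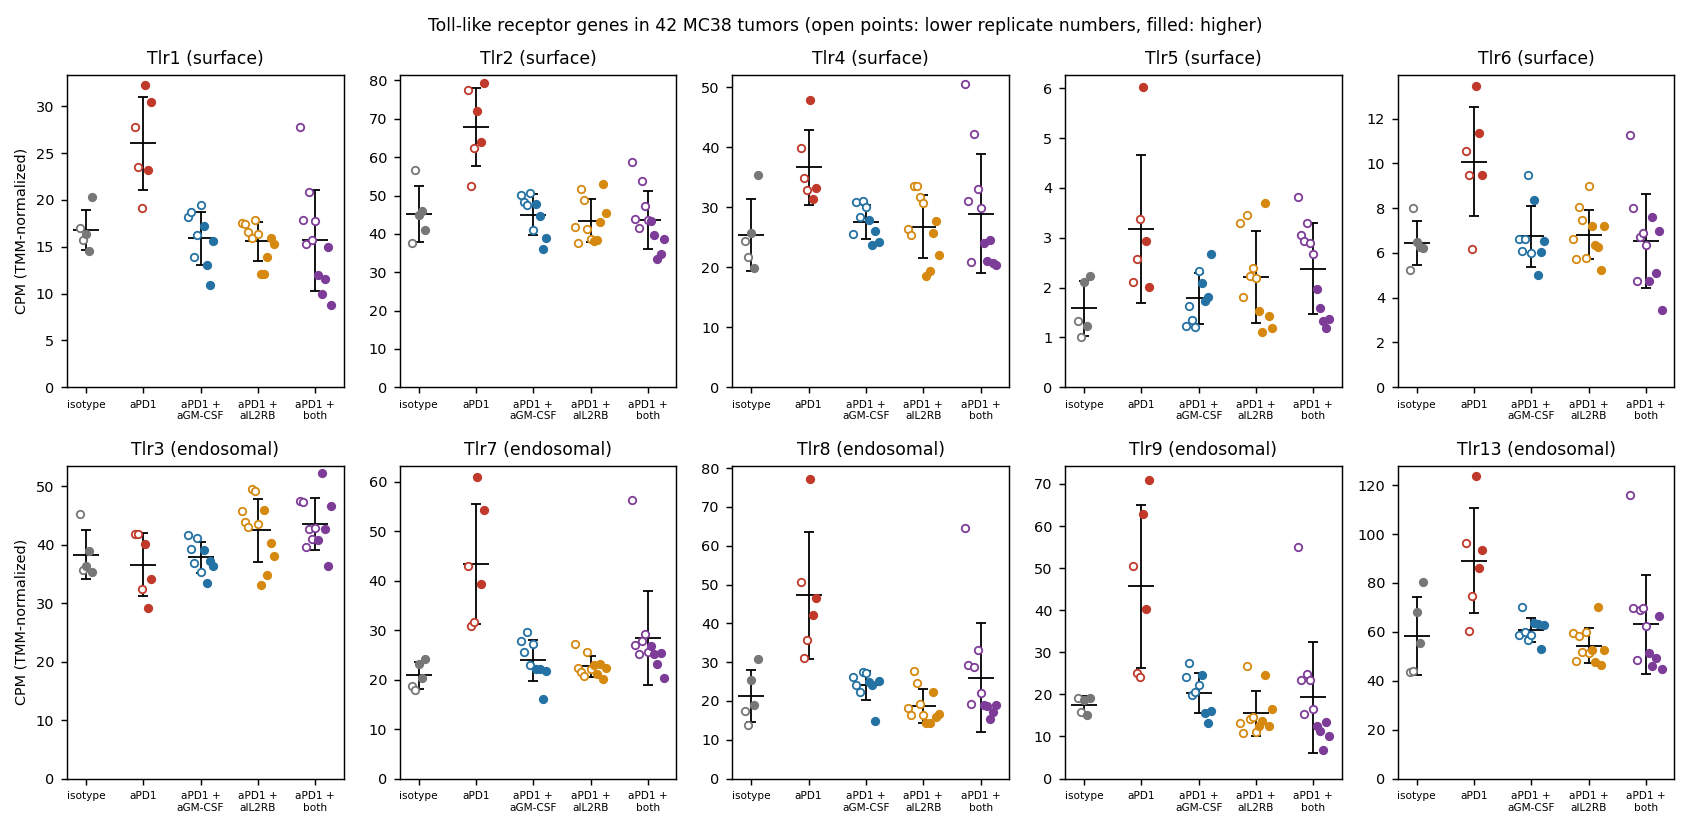
Level of each Toll-like receptor gene in every tumor, in CPM normalized by TMM, with 1 panel per gene and the 5 treatment groups along each horizontal axis ("aPD1 + both" is aPD1 + aGM-CSF + aIL2RB). Points are tumors (open for the first set, filled for the second) and bars are the mean ± SD, and aPD1 tumors stand above isotype tumors without overlap for Tlr7, Tlr8 and Tlr9, whereas they overlap for Tlr3.

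The first comparison, of aPD1 with isotype tumors, asks how the tumor transcriptome changes within 48 h of PD1 blockade. Transcripts of 8 of the 10 receptors rose and none fell, with Tlr9, Tlr8 and Tlr7 showing 2.60-, 2.22- and 2.08-fold higher levels and Tlr3 showing none of this. Among all genes tested, 6.17% were higher and 2.54% lower in this comparison. The 8 were 4 of 5 surface and 4 of 5 endosomal receptors (edgeR quasi-likelihood test, adjusted p under 0.05). The median log2 fold change was 0.63 over the surface and 1.06 over the endosomal receptors, and -0.0023 over all genes.

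Tlr9, the receptor for CpG DNA, was at 19.1, 15.8, 18.6, 15.2 and 19.2 CPM in the isotype tumors. In aPD1 tumors it ranged from 24.1 to 71.1 CPM with a mean of 45.7 ± 19.4 (SD, n = 6). Every aPD1 tumor was above every isotype tumor, and the aPD1 tumors themselves were widely spread. The log2 fold change was 1.38 (SE 0.33, adjusted p = 0.00816, edgeR).

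Tlr8 was at 17.4, 13.9, 25.4, 18.99 and 30.9 CPM in the isotype tumors. In aPD1 tumors it ranged from 31.2 to 77.3 CPM (47.2 ± 16.3, SD, n = 6). The groups did not overlap, but the lowest aPD1 tumor was just above the highest isotype tumor. The log2 fold change was 1.15 (SE 0.26, adjusted p = 0.00581, edgeR).

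Tlr7, its neighbour on the X chromosome, was at 18.7, 17.9, 23.2, 20.4 and 24.1 CPM in isotype tumors. In aPD1 tumors it ranged from 30.8 to 61.0 CPM (43.3 ± 12.2, SD, n = 6). Its groups were again apart, and its log2 fold change of 1.06 (SE 0.18, adjusted p = 0.000356, edgeR) had the lowest adjusted p of the 10 receptors. Of all genes tested, 3.38% stood higher in every aPD1 than in every isotype tumor, and of the receptors these were Tlr7, Tlr8 and Tlr9.

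Tlr13, which has no human counterpart, was at 43.8, 43.9, 68.0, 55.5 and 80.3 CPM in isotype tumors. Its aPD1 tumors ranged from 60.2 to 123.8 CPM (89.1 ± 21.6, SD, n = 6), overlapping the 2 highest isotype tumors. The log2 fold change was 0.61 (SE 0.18, adjusted p = 0.0227, edgeR).

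Tlr3 was the endosomal receptor that did not pass the test. Its levels were 45.3, 35.6, 36.3, 38.997 and 35.3 CPM in isotype tumors, and 29.2 to 41.9 CPM (36.6 ± 5.40, SD, n = 6) in aPD1 tumors. The groups overlapped in part, with 3 of 6 aPD1 tumors below every isotype tumor and isotype replicate 1 above every aPD1 tumor, and the log2 fold change was -0.06 (SE 0.10, adjusted p = 0.734, edgeR).

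Of the surface receptors, Tlr2 was at 37.5, 56.5, 45.0, 46.0 and 40.9 CPM in isotype and at 52.6 to 79.3 CPM (67.9 ± 10.2, SD, n = 6) in aPD1 tumors. Isotype replicate 2 alone reached the range of the aPD1 tumors. The log2 fold change was 0.59 (SE 0.12, adjusted p = 0.00247, edgeR).

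Its partners Tlr1 and Tlr6 rose by like amounts. Tlr1 was at 17.04, 15.7, 16.4, 14.6 and 20.3 CPM in isotype and at 19.1 to 32.2 CPM in aPD1 tumors, higher by 0.63 on the log2 scale (SE 0.19, adjusted p = 0.0255, edgeR). Tlr6 was at 5.24, 7.99, 6.50, 6.25 and 6.21 CPM in isotype and at 6.18 to 13.5 CPM in aPD1 tumors, higher by 0.65 (SE 0.20, adjusted p = 0.0330, edgeR). In both genes a single aPD1 tumor, replicate 3, lay within the isotype range.

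Tlr5, the flagellin receptor, was barely expressed, at 1.32, 1.00, 2.12, 1.22 and 2.24 CPM in isotype and 2.01 to 6.02 CPM in aPD1 tumors. The groups overlapped, and the log2 fold change of 1.01 (SE 0.33, adjusted p = 0.0477, edgeR) was just past the threshold. The counts behind it were 22 to 140 per tumor. Tlr4, the lipopolysaccharide receptor, was at 24.4, 21.6, 25.7, 19.8 and 35.4 CPM in isotype and at 31.3 to 47.9 CPM in aPD1 tumors. Here 1 isotype tumor overlapped the aPD1 group, and the log2 fold change of 0.53 (SE 0.19, adjusted p = 0.0635, edgeR) did not pass.

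Several of these calls were close to the threshold. The call of Tlr5 was lost in 11, that of Tlr6 in 9 and those of Tlr1 and Tlr13 in 6 of 21 alternative analyses. Leaving out isotype replicate 4 or aPD1 replicate 4 lowered the number of receptors called to 4, where 3.39% and 3.02% of all genes were higher, and leaving out isotype replicate 1 or 2 lowered it to 5, where 4.31% and 4.73% were. Within the first set (2 isotype and 3 aPD1 tumors) 0 receptors were called by edgeR, in a fit that called only 0.00575% of all genes higher, and within the second set 7 were higher, as were 9.33% of all genes. Each of the 10 had the same direction in both sets, with Tlr9 at 0.92 and 1.74, Tlr8 at 1.32 and 1.16 and Tlr7 at 0.94 and 1.21 on the log2 scale.

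**Figure D2:**
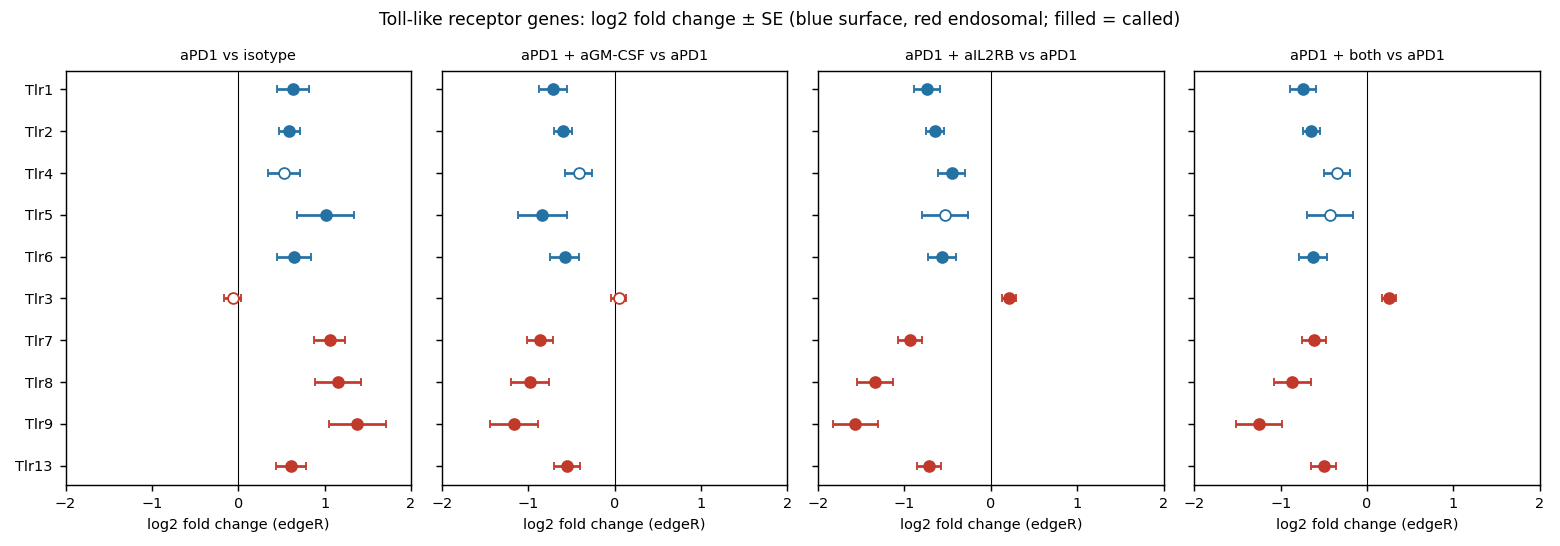
Log2 fold change of each of the 10 Toll-like receptor genes with its SE in aPD1 against isotype and in each blocking antibody group against aPD1 (edgeR, all 42 tumors, "aPD1 + both" is aPD1 + aGM-CSF + aIL2RB). Filled points passed an adjusted p of 0.05, blue marks surface and red endosomal genes, and among the 10 plotted genes Tlr9 had the largest change in each of the 4 comparisons, at 1.38 with aPD1 and at -1.17, -1.57 and -1.25 with the blocking antibodies, and Tlr3 stood apart from the other genes.

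The next comparisons ask what changes when GM-CSF, IL2RB or both were blocked in aPD1-treated mice. They share the 6 aPD1 tumors, so their results are not independent of each other or of the comparison with isotype, and values are set side by side without a test of likeness. In aPD1 + aGM-CSF tumors, 8 of the 10 receptors were lower than in aPD1 tumors and none was higher, where 8.75% of all genes were lower and 4.77% higher. The median log2 fold change was -0.59 over the surface and -0.86 over the endosomal receptors.

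Tlr9 ranged from 13.3 to 27.4 CPM with a median of 20.5 in the 9 aPD1 + aGM-CSF tumors and fell by 1.17 on the log2 scale (SE 0.28, adjusted p = 0.00387, edgeR). The highest of these tumors overlapped the 2 lowest aPD1 tumors. Tlr8 (14.9 to 27.4 CPM, median 24.8) fell by 0.98 (SE 0.22, adjusted p = 0.00259, edgeR). Tlr7 (16.02 to 29.7 CPM, median 22.9) fell by 0.86 (SE 0.15, adjusted p = 0.000215, edgeR). All 9 tumors were below every aPD1 tumor for Tlr7 and Tlr8, and the same held for Tlr2 and Tlr4, whereas 2.20% of all genes showed this.

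Of the remaining endosomal receptors, Tlr13 (52.9 to 70.2 CPM, median 59.9) fell by 0.55 (SE 0.15, adjusted p = 0.0103, edgeR) and Tlr3 (33.5 to 41.6 CPM, median 37.3) did not pass. On the surface, Tlr2 (35.9 to 50.8 CPM, median 47.6) fell by 0.59 (SE 0.10, adjusted p = 0.000250, edgeR). Tlr1 (11.0 to 19.4 CPM, median 16.3) fell by 0.71 (SE 0.16, adjusted p = 0.00216, edgeR). The tumors of the groups were apart for Tlr2 and met at the edge of their ranges for Tlr1. Tlr6 fell by 0.58 (SE 0.17, adjusted p = 0.0182) and Tlr5 by 0.84 (SE 0.28, adjusted p = 0.0397, edgeR), the latter lost in 8 of 16 alternatives. Tlr4 (23.7 to 30.95 CPM, median 27.9) had groups that did not overlap but missed the threshold (adjusted p = 0.0760, edgeR). Within the first set edgeR called 0 receptors and 0.0690% of all genes lower, and within the second set 8 receptors and 11.1% of all genes. Without aPD1 replicate 4, 5 receptors and 4.81% of all genes were lower.

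In aPD1 + aIL2RB tumors, 8 receptors were lower than in aPD1 tumors and 1, Tlr3, was higher, where 14.5% of all genes were lower and 13% higher. The median log2 fold change was -0.57 over the surface and -0.94 over the endosomal receptors. Tlr9 ranged from 10.9 to 26.6 CPM with a median of 13.6 in the 11 tumors and fell by 1.57 (SE 0.27, adjusted p = 1.59e-05, edgeR). Tlr8 (14.2 to 27.7 CPM, median 16.6) fell by 1.34 (SE 0.21, adjusted p = 5.92e-06, edgeR). Tlr7 (20.2 to 27.2 CPM, median 22.4) fell by 0.94 (SE 0.14, adjusted p = 3.21e-06, edgeR). For Tlr7, Tlr8 and Tlr1 all 11 tumors were below every aPD1 tumor, which held for 2.99% of all genes.

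Tlr13 (46.3 to 70.2 CPM, median 52.6) fell by 0.71 (SE 0.14, adjusted p = 0.000173, edgeR), with overlap at the lower end of the aPD1 range. Tlr1 (12.1 to 17.9 CPM, median 15.9) fell by 0.74 (SE 0.15, adjusted p = 0.000208, edgeR). Tlr2 (37.7 to 53.1 CPM, median 41.7) fell by 0.65 (SE 0.10, adjusted p = 4.28e-06, edgeR), its highest tumor just inside the aPD1 range. Tlr6 fell by 0.57 (SE 0.16, adjusted p = 0.00690) and Tlr4 by 0.46 (SE 0.15, adjusted p = 0.0221, edgeR). Tlr5 (1.11 to 3.70 CPM) did not pass. Tlr3 (33.1 to 49.6 CPM, median 43.6) was higher by 0.21 (SE 0.08, adjusted p = 0.0472, edgeR), a small difference between groups that overlapped, and this call was lost in 9 of 16 alternatives. Of 4 fibroblast markers 2 were also higher and 1 lower in this comparison, with values given among the marker lists. Within the first set 5 receptors and 8.84% of all genes were lower, and within the second set 9 receptors and 13.3% of all genes (edgeR). Tlr3 was called in neither set.

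In aPD1 + aGM-CSF + aIL2RB tumors, 7 receptors were lower than in aPD1 tumors and Tlr3 was higher, where 14.3% of all genes were lower and 13.1% higher. The median log2 fold change was -0.63 over the surface and -0.61 over the endosomal receptors. Tlr9 ranged from 6.90 to 55.0 CPM with a median of 15.2 in the 11 tumors and fell by 1.25 (SE 0.27, adjusted p = 0.000394, edgeR). Tlr8 (15.3 to 64.7 CPM, median 19.3) fell by 0.86 (SE 0.21, adjusted p = 0.00183, edgeR). Tlr7 (20.3 to 56.4 CPM, median 25.6) fell by 0.61 (SE 0.14, adjusted p = 0.00101, edgeR). For each of these the highest tumor was replicate 1, which lay among the aPD1 tumors, and 0 receptors had groups that did not overlap, where 0.827% of all genes were lower in this way.

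Tlr13 (44.6 to 116 CPM, median 62.6) fell by 0.50 (SE 0.14, adjusted p = 0.00713, edgeR). Tlr1 fell by 0.74 (SE 0.15, adjusted p = 0.000264), Tlr2 by 0.65 (SE 0.10, adjusted p = 5.46e-06) and Tlr6 by 0.63 (SE 0.16, adjusted p = 0.00304, edgeR). Tlr4 and Tlr5 did not pass. Tlr3 (36.3 to 52.3 CPM, median 42.8) was higher by 0.25 (SE 0.08, adjusted p = 0.0176, edgeR), again with overlap. Without replicate 1, an analysis chosen after the data were seen, 9 receptors were called (Tlr4 in addition), where 15.9% of all genes were lower and 14.1% higher, the medians were -0.70 over the surface and -0.76 over the endosomal receptors, Tlr9 fell by 1.55, Tlr8 by 1.10 and Tlr7 by 0.76, and Tlr3 was higher by 0.24 (adjusted p = 0.0253, edgeR). Within the first set edgeR called 0 receptors, where 2.45% of all genes were lower and 2.91% higher, and within the second set 9 receptors were lower and Tlr3 higher, where 16.7% of all genes were lower and 12.9% higher. The second set held lower levels in this group, with mean Tlr9 at 26.4 CPM in the first and 10.8 CPM in the second set and Tlr8 at 32.9 and 17.8 CPM.

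None of the 10 receptors was called by edgeR between isotype and any blocking antibody group, or between blocking antibody groups. Against isotype, 0.00% of all genes were higher and 0.00% lower in aPD1 + aGM-CSF, 1.70% and 1.51% in aPD1 + aIL2RB, and 5.69% and 4.51% with both blocking antibodies. The receptors' log2 fold changes ranged from -0.08 to 0.21, from -0.19 to 0.48 and from -0.11 to 0.58. At an unadjusted p under 0.05 edgeR gave 0, 0 and 2 (Tlr3 and Tlr7) receptors, where 938, 3065 and 4520 of all 16932 genes had such a p. DESeq2 called 0, 0 and 1 (Tlr7) of the receptors. The lowest adjusted p was 0.0631, for Tlr7 in aPD1 + aGM-CSF + aIL2RB against isotype tumors. Without replicate 1 the values of the combination against isotype ranged from -0.22 to 0.48 with 0 called. Within the first and second sets 0 and 0 receptors were called for aPD1 + aGM-CSF and for aPD1 + aIL2RB, and 1 and 1 for the combination, namely Tlr5, higher as were 0.943% of all genes, and Tlr1, lower as were 6.52%. With the replicate number as a block edgeR called Tlr3 higher in aPD1 + aIL2RB, where 6.20% of all genes were higher, and Tlr3, Tlr5 and Tlr7 higher in the combination, where 11.3% were. A p that misses the threshold does not show that the levels were alike.

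Between blocking antibody groups, aPD1 + aIL2RB against aPD1 + aGM-CSF gave log2 fold changes of -0.40 to 0.31 (0.626% of all genes higher and 0.898% lower). The unadjusted count was 1 (Tlr3) with edgeR and DESeq2 called 0. The combination against aPD1 + aGM-CSF gave -0.08 to 0.41 (0.980% and 1.15%), with an unadjusted count of 1 (Tlr3) and 0 called by DESeq2. The combination against aPD1 + aIL2RB gave -0.06 to 0.48 (0.00591% and 0.00%), with an unadjusted count of 2 (Tlr7 and Tlr8) and 0 called by DESeq2. The percentages are of the adjusted test, and the unadjusted counts over all 16932 genes were 2288, 2933 and 1212 in the same order. In these 3 comparisons edgeR also called 0 receptors within either set, and 0 for the combination without replicate 1. The within-set fits called at most 2.76% of all genes higher and 4.93% lower. For the combination against aPD1 + aGM-CSF, edgeR called Tlr3 higher with the replicate number as a block and in a fit of those groups alone, where 2.46% and 2.36% of all genes were higher.

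The balance of surface against endosomal receptors was taken in each tumor as the mean log2 CPM of the 5 surface genes minus that of the 5 endosomal genes. The difference depends on exon lengths and is read only between groups. It was -1.28 ± 0.14 (SD, n = 5) in isotype and -1.41 ± 0.20 (n = 6) in aPD1 tumors, which overlapped. With blockade it was -1.35 ± 0.13 (aGM-CSF, n = 9), -1.15 ± 0.14 (aIL2RB, n = 11) and -1.36 ± 0.15 (both, n = 11, or -1.33 ± 0.13 without replicate 1, n = 10). The ranges of all 5 groups overlapped, and the values are a description with no test. The order of the groups depended on the summary. With the median over the 5 genes of each class in place of the mean, the difference was -0.41 in isotype and -0.77 in aPD1 tumors, and -0.68 with aGM-CSF, -0.61 with aIL2RB and -0.91 with both, so that isotype rather than aPD1 + aIL2RB was the highest and the combination rather than aPD1 the lowest. Within the endosomal class the receptors moved unequally, from -0.06 (Tlr3) to 1.38 (Tlr9) on the log2 scale with aPD1.

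**Figure D3:**
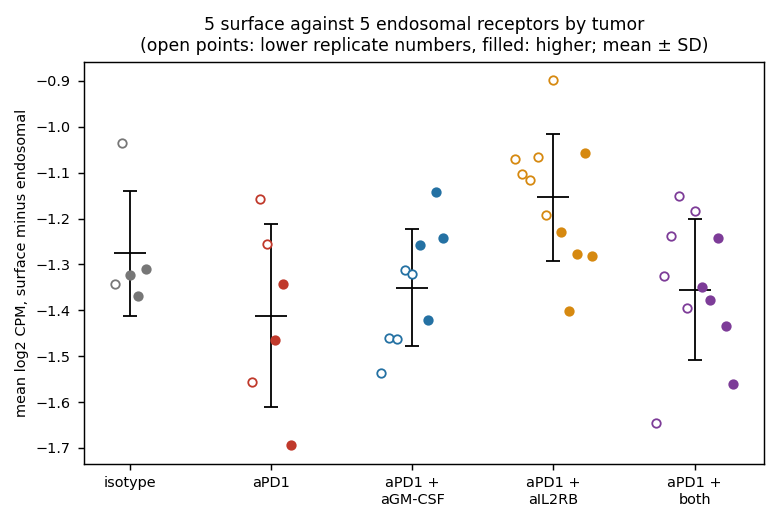
Mean log2 CPM of the 5 surface minus that of the 5 endosomal receptor genes in every tumor, by group ("aPD1 + both" is aPD1 + aGM-CSF + aIL2RB). Open points are tumors of the first set and filled points those of the second, bars are the mean ± SD, and the groups overlap, with means from -1.41 in aPD1 to -1.15 in aPD1 + aIL2RB, an order that changes when medians replace means.

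Transcripts of leukocytes moved with the receptors. Ptprc, which encodes the pan-leukocyte surface protein CD45, was at 150, 154, 161, 150 and 180 CPM in isotype and at 205 to 412 CPM (median 319) in aPD1 tumors. It ranged from 142 to 229 CPM with aGM-CSF, from 94.8 to 187 CPM with aIL2RB and from 86.8 to 368 CPM with both, where the highest was 224 CPM without replicate 1. Isotype tumors lay below every aPD1 tumor. Its log2 fold changes were 0.97 with aPD1 and -0.81, -1.29 and -0.98 with the blocking antibodies.

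Per 100 CPM of Ptprc, the receptors differed in direction. In aPD1 against isotype tumors, Tlr9 was at 14.1 ± 2.79 against 11.1 ± 1.11 CPM (SD, n = 6 and 5), Tlr8 at 15.1 ± 2.50 against 13.2 ± 3.24 and Tlr7 at 13.9 ± 1.13 against 13.1 ± 1.05. The means of Tlr7 and of Tlr8 were within 1 SD of each other, and that of Tlr9 was higher by more than either SD. Tlr13 (29.0 ± 4.32 against 36.2 ± 7.30), Tlr2 (22.5 ± 4.28 against 28.6 ± 5.42) and Tlr1 (8.51 ± 0.899 against 10.5 ± 0.734) had lower means in aPD1 tumors. So did Tlr4 (12.2 ± 2.70 against 15.8 ± 2.49) and Tlr6 (3.29 ± 0.593 against 4.06 ± 0.701). Tlr5 was at 1.06 ± 0.446 against 0.980 ± 0.285. Tlr3 had the largest shift, at 12.4 ± 3.60 in aPD1 and 24.3 ± 4.02 CPM per 100 CPM of Ptprc in isotype tumors. With blockade the ratios of several receptors did not follow their falls in CPM. Against 13.9 in aPD1 tumors, Tlr7 was at 13.6 ± 2.72 with aGM-CSF, 18.4 ± 3.72 with aIL2RB and 19.9 ± 5.62 with both (SD, n = 9, 11 and 11). Tlr2 was at 25.6 ± 2.83, 34.9 ± 6.44 and 31.6 ± 9.98, Tlr13 at 34.95 ± 5.68, 43.5 ± 6.19 and 43.4 ± 8.98 and Tlr1 at 9.02 ± 1.26, 12.6 ± 2.65 and 10.6 ± 1.76, all with means above those of aPD1 tumors. Tlr4 (15.7 ± 2.01, 21.3 ± 3.97 and 19.8 ± 4.19) and Tlr6 (3.81 ± 0.446, 5.51 ± 1.33 and 4.57 ± 1.61) also had means above those of aPD1 tumors. Tlr5 was at 1.04 ± 0.379, 1.69 ± 0.474 and 1.59 ± 0.411. Tlr3 was at 21.6 ± 2.50, 34.4 ± 7.02 and 33.5 ± 15.001 CPM per 100 CPM of Ptprc. Tlr9 had means below its 14.1 in aPD1 tumors, at 11.4 ± 1.76, 11.9 ± 1.79 and 11.7 ± 1.90, and Tlr8 was at 13.7 ± 2.13, 14.7 ± 1.33 and 16.9 ± 2.99 against 15.1. The ratios are a description, with no test, and the part of leukocyte content in the differences between groups was not tested.

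**Figure D4:**
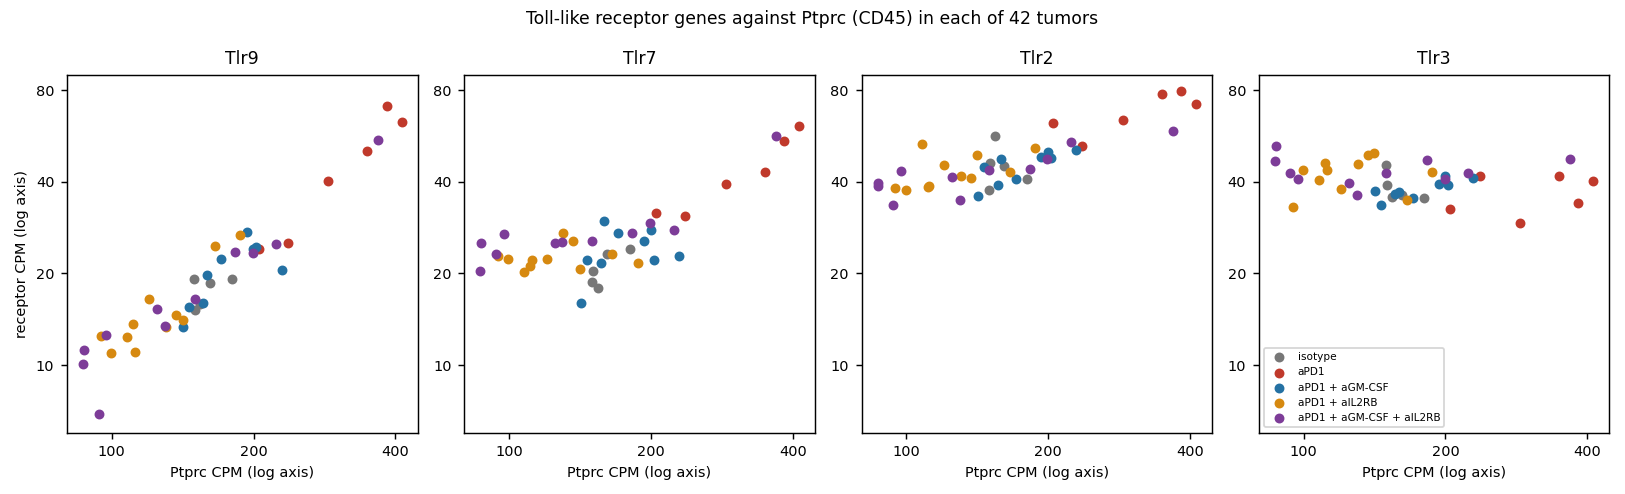
Level of 4 receptor genes against that of Ptprc in every tumor, in CPM on log axes as labelled, colored by group, for Tlr9, Tlr7, Tlr2 and Tlr3. Tlr9, Tlr7 and Tlr2 are higher where Ptprc is higher, and Tlr3 stays between 29.2 and 52.3 CPM over the whole range of Ptprc from 86.8 to 412 CPM.

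Markers of several cell types moved as well. Of all genes, 6.17% were higher with aPD1, and 8.75%, 14.5% and 14.3% were lower and 4.77%, 13% and 13.1% higher with aGM-CSF, aIL2RB and both antibodies than in aPD1 tumors, against which the counts of these short lists are to be read. Of 5 macrophage markers, 4 were higher in aPD1 than in isotype tumors and 4, 4 and 4 were lower with aGM-CSF, aIL2RB and both antibodies than in aPD1 tumors. Their summed level was 792 to 929 CPM in isotype, 948 to 1646 CPM in aPD1, 733 to 914 CPM with aGM-CSF, 679 to 866 CPM with aIL2RB and 582 to 1227 CPM with both (to 900.2 CPM without replicate 1). The summed macrophage level of aPD1 tumors was thus above that of every isotype tumor. Of 3 monocyte markers 2 were higher with aPD1 and 2, 3 and 3 were lower with the blocking antibodies, with medians of 104, 148, 107, 86.6 and 74.8 CPM in the order of the groups above. Of 4 plasmacytoid dendritic cell markers, a cell type known for Tlr7 and Tlr9, 0 were called with aPD1 and 1, 2 and 1 were lower with the blocking antibodies, and their summed medians were only 2.29, 4.41, 2.19, 2.71 and 2.98 CPM. Of 5 B cell markers 1 was higher with aPD1 and 0, 2 and 1 were lower with the blocking antibodies, and their summed medians were 3.12 to 5.33 CPM in isotype and aPD1 tumors. Of 3 conventional type 2 dendritic cell markers 1 was higher with aPD1 and 2, 2 and 2 were lower with the blocking antibodies. Of 6 neutrophil markers, 4 of which were tested, 1 was higher with aPD1 and 3, 1 and 2 were lower with the blocking antibodies. Their summed level was 10.3 to 14.2 CPM in isotype and 17.5 to 43.9 CPM in aPD1 tumors, without overlap, and the medians with aGM-CSF, aIL2RB and both were 11.7, 11.4 and 11.3 CPM. Of 4 conventional type 1 dendritic cell markers 0 were called with aPD1 and 0, 3 and 3 were lower with the blocking antibodies, and their summed level of 75.0 to 103 CPM in aPD1 tumors was also apart from that of 52.1 to 72.6 CPM in isotype tumors. The 4 T cell markers summed to 16.3 to 33.7 CPM in isotype and 39.2 to 78.9 CPM in aPD1 tumors, again apart, with 0 called with aPD1 and 0, 3 and 4 lower with the blocking antibodies. Of 3 NK cell markers 0 were called with aPD1 and 0, 3 and 3 were lower. The 4 fibroblast markers had their highest median sums in the groups given aIL2RB, in which Tlr3 was also higher than in aPD1 tumors. They summed to 1012 to 1333 CPM in isotype, 1058 to 1798 CPM in aPD1, 1194 to 1647 CPM with aGM-CSF, 1349 to 1808 CPM with aIL2RB and 1517 to 1942 CPM with both (to 1771 CPM without replicate 1). Against aPD1, 1, 2 and 3 of them were higher and 0, 1 and 0 lower with the blocking antibodies (2 higher and 1 lower for the combination without replicate 1). Of 4 endothelial markers 2 were higher with aPD1, and 0, 1 and 1 were higher and none lower with the blocking antibodies, with median sums of 124 CPM in isotype, 171 CPM in aPD1 and 142, 152 and 172 CPM with blockade. Of 4 epithelial markers 0 were called with aPD1 and 0, 1 and 2 were lower with the blocking antibodies, with median sums of 13.3 CPM in isotype, 8.85 CPM in aPD1 and 3.95, 3.60 and 3.07 CPM with blockade. Without replicate 1, the numbers lower with both antibodies than in aPD1 tumors were 4 for macrophage, 3 for monocyte, 2 for neutrophil, 1 for plasmacytoid, 3 for type 1 and 2 for type 2 dendritic cell, 2 for B cell (of 4 tested), 4 for T cell, 3 for NK cell and 1 for epithelial markers, and the median sums of the combination were 72.8 CPM for monocyte, 2.80 CPM for plasmacytoid dendritic cell and 10.5 CPM for neutrophil markers. No marker of any list was at 0 in all tumors, and the part of these cell types in the receptor results was not tested.

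Within groups, likeness between the receptors from tumor to tumor ranged widely. As deviations from the mean of the same group and set over 42 tumors, log2 CPM of Tlr8 and Tlr9 had a Pearson r of 0.82, Tlr8 and Tlr13 of 0.79 and Tlr7 and Tlr13 of 0.78. Tlr3 had r of -0.09 to 0.26 with the other 9 receptors, and Tlr1 and Tlr6, which share reads, had 0.40. Between pairs of surface receptors it ran from -0.0073 for Tlr2 and Tlr5 to 0.61 for Tlr1 and Tlr4. Between a surface and an endosomal receptor it ran from -0.09 for Tlr5 and Tlr3 to 0.73 for Tlr4 and Tlr8. Tumors in 1 group share treatment, and all genes of a tumor share its library and its cell makeup, so these values describe likeness and carry no p. Between the sets, with the groups held constant, Tlr4 (log2 difference -0.28, adjusted p = 0.0143), Tlr1 (-0.28, adjusted p = 0.0168) and Tlr3 (-0.12, adjusted p = 0.0476, edgeR) were lower in the second set, and the other 7 receptors were not called. Of all 16932 genes tested, 1943 were lower and 2309 higher in the second set.

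The genes of the matrix most like each receptor were taken by this measure. For Tlr13 they were Nckap1l (0.91), Mpeg1 (0.88) and Ptprj (0.87), and for Tlr9 Ptprc (0.89), Dock2 (0.89) and Rassf4 (0.88). For Tlr8 they were Igsf6 (0.89), Prex1 (0.86) and Gm4070 (0.85), and for Tlr7 Csf1r (0.85), the receptor of the macrophage growth factor M-CSF, Ptprj (0.81) and Nckap1l (0.79). The genes most like Tlr3 were Hgf (0.77), which encodes a growth factor of mesenchymal origin, Sesn3 (0.76) and Pcdhb14 (0.73). Of the surface receptors, Tlr4 was most like Rab8b (0.83), Man1a (0.82) and Lamp2 (0.80), Tlr1 most like Elmo1 (0.79), Ptprj (0.76) and Extl3 (0.74), and Tlr2 most like Bicd2 (0.76), Stap1 (0.73) and C1qa (0.73). The 2 lowest receptors had weaker likeness, with Pcsk5 (0.70), Tnc (0.66) and BC030343 (0.66) for Tlr5 and Gm43065 (0.67), Fgd3 (0.65) and Arhgap30 (0.65) for Tlr6.

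Genes that act with the receptors were examined by list. The shares of all genes called in the same comparisons were 6.17% higher and 2.54% lower with aPD1, and 8.75%, 14.5% and 14.3% lower and 4.77%, 13% and 13.1% higher with aGM-CSF, aIL2RB and both against aPD1. A single gene called in a list of 8 is close to the share of all genes. Of 9 ligand-binding partners and chaperones, 5 were higher in aPD1 than in isotype tumors and 6, 7 and 7 were lower with aGM-CSF, aIL2RB and both than in aPD1 tumors. Without replicate 1 of the combination, the last number was 7 here, and 2 for the adaptors, 5 for endosomal processing, 6 for kinases and transcription factors, 4 for negative regulators, 11 for target genes and 1 for ligands described next. Unc93b1, which carries the nucleic acid receptors to endosomes, had a mean of 108 ± 11.6 CPM across isotype and 190 ± 48.9 CPM across aPD1 tumors (SD, n = 5 and 6), higher by 0.82 on the log2 scale (SE 0.18, adjusted p = 0.00378, edgeR), and it fell by 1.01 with aIL2RB (SE 0.14, adjusted p = 1.26e-06). Cd14, which passes lipopolysaccharide to Tlr4, rose by 0.96 (SE 0.22, adjusted p = 0.00621), Lbp, the lipopolysaccharide-binding protein, by 1.17 (SE 0.35, adjusted p = 0.0283) and Cd180, a receptor related to Tlr4, by 0.87 (SE 0.25, adjusted p = 0.0257) on the log2 scale with aPD1. With aIL2RB, Cd14 fell by 0.61, Lbp by 0.96, Cd180 by 1.199, Cd36 by 1.26 and Ly86, the partner of Cd180, by 1.00 (adjusted p at most 0.00931, edgeR).

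Of 7 genes of endosomal processing and transport, which include the proteases that cleave the endosomal receptors, 4 were higher with aPD1 and 6, 5 and 4 were lower with the blocking antibodies. Ctss (cathepsin S) rose from 576 ± 66.7 to 982 ± 234 CPM with aPD1 (log2 fold change 0.77, SE 0.21, adjusted p = 0.0162, edgeR) and was at 455 ± 78.3 CPM in aPD1 + aIL2RB tumors. Slc15a3, an endolysosomal peptide transporter, rose by 0.83 (adjusted p = 0.0130), Ctsb by 0.64 (adjusted p = 0.00286) and Lgmn, an asparagine endopeptidase, by 0.55 (adjusted p = 0.00700). With aIL2RB, Ctss fell by 1.11, Slc15a3 by 0.98, Ctsb by 0.59 and Lgmn by 0.62 against aPD1 (adjusted p at most 5.87e-05, edgeR).

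Of 4 adaptors 0 were called with aPD1 (edgeR), and 2, Myd88 and Ticam2, were lower with each blocking antibody treatment, in aPD1 + aIL2RB tumors by 0.41 (SE 0.10, adjusted p = 0.00129) and 1.07 (SE 0.21, adjusted p = 0.000135). Of 18 kinases and transcription factors 4 were higher with aPD1, and 4, 7 and 5 were lower and 1, 1 and 2 higher with the blocking antibodies. Irf7, the interferon regulatory factor downstream of Tlr7 and Tlr9, had a log2 fold change of 1.94 in aPD1 tumors (SE 0.29, adjusted p = 0.000156, edgeR), from 30.7 ± 5.41 to 118 ± 58.1 CPM, and was at 44.5 ± 11.8 CPM in aPD1 + aIL2RB tumors. Ikbke, a kinase upstream of the interferon response, rose by 1.04 (adjusted p = 0.00379), Irf5 by 0.52 (adjusted p = 0.0307) and Ikbkb by 0.23 (adjusted p = 0.0188). With aIL2RB, Irf7 fell by 1.41, Ikbke by 1.17, Irak2 by 0.74, Irf5 by 0.73 and Ikbkb by 0.24 (adjusted p at most 0.000746, edgeR). Irf7 is itself an interferon-induced gene.

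Of 8 negative regulators, Irak3, an inhibitor of receptor-proximal kinases found in monocytes and macrophages, was higher with aPD1 by 1.03 (SE 0.25, adjusted p = 0.00754, edgeR) and Sigirr, an inhibitory receptor of the same superfamily, lower by 0.36 on the log2 scale (SE 0.12, adjusted p = 0.0414). In aPD1 + aIL2RB tumors Irak3 fell by 1.09 (adjusted p = 4.53e-05, edgeR) and Sigirr had 0.17 (adjusted p = 0.203). Tnfaip3 fell by 0.46 (adjusted p = 0.000851) and Nfkbia by 0.26 (adjusted p = 0.0136, edgeR) in the same comparison. With the blocking antibodies 2, 3 and 4 of the 8 were lower than in aPD1 tumors and 1, 0 and 0 higher. Of 15 tested target genes of the pathway, 3 were higher with aPD1 and 8, 6 and 9 lower with the blocking antibodies. Tnf rose from 6.51 ± 2.07 to 13.7 ± 2.78 CPM (log2 fold change 1.07, SE 0.31, adjusted p = 0.0241, edgeR), the costimulatory gene Cd86 by 1.02 (SE 0.23, adjusted p = 0.00526) and Cxcl10, also a target of interferon, by 0.88 (SE 0.26, adjusted p = 0.0279). In aPD1 + aIL2RB tumors Il10 fell by 2.35 (SE 0.59, adjusted p = 0.00231), Tnf by 1.52 (SE 0.25, adjusted p = 1.02e-05), Cd80 by 1.16 (SE 0.27, adjusted p = 0.000853), Cd86 by 0.81 (adjusted p = 0.000820) and Cxcl10 by 0.64 (adjusted p = 0.0194). Ifnb1 had too few counts to test.

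Of 8 endogenous ligands, Bgn, a matrix proteoglycan, was the 1 higher with aPD1 (0.71, adjusted p = 0.0179, edgeR), and 2, 1 and 1 were lower with the blocking antibodies. With aIL2RB the 1 was Bgn, which fell by 0.68 (adjusted p = 0.00102, edgeR), while Vcan, another matrix proteoglycan, was higher by 0.67 (SE 0.15, adjusted p = 0.000843) in aPD1 + aIL2RB than in aPD1 tumors. The receptors Tlr11 and Tlr12, which sense profilin of protozoa, were scarce, at means of 0.700 and 7.50 CPM in isotype and 1.14 and 10.5 CPM in aPD1 tumors, and 0 of 2 were called with aPD1 or with aGM-CSF. In aPD1 + aIL2RB tumors Tlr11 (0.260 CPM) fell by 2.12 (SE 0.47, adjusted p = 0.000589, edgeR) and Tlr12 (5.12 CPM) by 1.04 (SE 0.33, adjusted p = 0.0165). With both antibodies Tlr11 (0.466 CPM) fell by 1.28 (SE 0.46, adjusted p = 0.0330, edgeR) and Tlr12 (4.44 CPM) by 1.25 (SE 0.34, adjusted p = 0.00427), and both were also called lower without replicate 1.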

How the data were processed

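Libraries of poly(A) RNA from 42 tumors were prepared with the KAPA mRNA HyperPrep kit. The authors aligned reads with Bowtie 1.2.3 (submitters' processing notes) to transcriptomes of the Collaborative Cross founder strains (GRCm38/mm10) and deposited expected counts per gene, estimated with gbrs and summed over haplotypes, without normalization. Reads shared by similar genes are divided, and 15.2% of values were not whole. Counts were rounded and fitted in R 4.3.3 with edgeR 4.0.16 (filterByExpr with minimum count 10 and minimum total 15, TMM, quasi-likelihood tests, all 42 tumors in 1 model), with Benjamini-Hochberg adjustment over 16932 genes and a threshold of 0.05. DESeq2 1.42.0 was an alternative. CPM used TMM factors, and log2 CPM a prior count of 2. Python 3.11.15, pandas 2.3.3 and numpy 2.4.6 served for summaries. On simulated counts for aPD1 against isotype (16265 genes), 143 of 200 genes changed 2-fold were recovered with 8 false calls. No tumor was left out. The labels call the replicates biological.

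The members and lists were chosen with earlier results of these data known, as was the division into sets. All 10 receptors are named. In comparisons other than aPD1 against isotype, tests are printed for called members and for those near the threshold. Of each pathway list, at most the 4 called genes with the largest absolute log2 fold change in aPD1 against isotype or aPD1 + aIL2RB against aPD1 are named. The genes most like a receptor are the 3 with the highest Pearson r. Sequences are from RefSeq (GRCm38.p6) and GENCODE transcripts.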

Additional observations from a re-analysis of the deposited data

Results flagged for a closer look

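Tlr8 in aPD1 + aGM-CSF replicate 8, at 14.9 CPM, stood farther below the other tumors of its group than Dixon's test allows at the 95% level. It was 1 of 30 gene and group combinations tested, and chance alone gives about 1 in 20.

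The difference between aPD1 + aGM-CSF + aIL2RB and aPD1 tumors differed between the sets by a test of the difference itself (edgeR, second minus first set). It was -2.10 on the log2 scale for Tlr9 (adjusted p = 0.00266), -1.51 for Tlr5 (adjusted p = 0.0297), -1.40 for Tlr8 (adjusted p = 0.00973), -1.03 for Tlr1 (adjusted p = 0.00464), -0.96 for Tlr7 (adjusted p = 0.00920) and -0.89 for Tlr13 (adjusted p = 0.0162). The fall with both antibodies was thus larger in the second set, and over all genes 1554 differed in this way. Against isotype, the same test gave -1.57 for Tlr8 (adjusted p = 0.0377) and -1.13 for Tlr13 (adjusted p = 0.0296), with 186 genes in all. Mean Tlr8 was at 32.9 CPM in the combination and 15.6 CPM in the 2 isotype tumors of the first set, and at 17.8 and 25.1 CPM in the second. Mean Tlr13 was at 72.6 and 43.8 CPM in the first set and at 51.6 and 67.9 CPM in the second. Both thus differed from isotype in opposite directions in the sets. Against aPD1 + aIL2RB the test gave -1.37 for Tlr9 (adjusted p = 0.0444), with 329 genes in all. Mean Ptprc moved alike, at 208 CPM in the first and 99.0 CPM in the second set of aPD1 + aGM-CSF + aIL2RB tumors and at 263 and 361 CPM in aPD1 tumors, and its part was not tested. Without aPD1 + aGM-CSF + aIL2RB replicate 1, chosen after the data were seen, 6 of the 9 calls held. Over all genes, 1071 then differed against aPD1, 101 against isotype and 78 against aPD1 + aIL2RB. The receptor calls lost were Tlr5 against aPD1 (-1.44, adjusted p = 0.0541), Tlr8 against isotype (-1.25, adjusted p = 0.0526) and Tlr9 against aPD1 + aIL2RB (-1.01, adjusted p = 0.133).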

How the results depend on the processing

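The numbers of receptors called in the 4 comparisons with calls (8, 8, 9 and 8) stayed within 1.5 times of these under other normalizations, filters, DESeq2, fits of only the groups compared and the replicate block, and fell within the first set to 0 for aPD1 against isotype, 0 for aPD1 + aGM-CSF, 5 for aPD1 + aIL2RB and 0 for aPD1 + aGM-CSF + aIL2RB against aPD1. Without single isotype or aPD1 tumors, or for the combination also without its replicate 1 or 4, the numbers ranged from 4 to 8, from 5 to 8, from 8 to 9 and from 7 to 9, and single aGM-CSF or aIL2RB tumors and the other tumors of the combination were not left out. Without isotype replicate 1 or 2 it was 5 for aPD1 against isotype. Where no receptor was called, the replicate block gave 1 for aPD1 + aIL2RB and 3 for aPD1 + aGM-CSF + aIL2RB against isotype, and 1 for aPD1 + aGM-CSF + aIL2RB against aPD1 + aGM-CSF. For aPD1 + aGM-CSF + aIL2RB against isotype the first set, the second set and DESeq2 gave 1 each, and against aPD1 + aGM-CSF a fit of those groups alone gave 1. The cause was not tested. Tumors with the same replicate number had a mean r of 0.0346 over 67 pairs, 16 of them over 0.1. Tumors with other numbers had a mean r of -0.0037 over 623 pairs, 104 of them over 0.1. A mean r this low does not show that the numbers pair tumors and does not exclude it. With medians in place of means, surface minus endosomal was -0.41 in isotype and -0.77 in aPD1 tumors, and with blockade -0.68 (aGM-CSF), -0.61 (aIL2RB) and -0.91 (both). Of single receptor values, 538 kept direction and side of the threshold, 81 lost a call, 6 gained one and 1 reversed, namely Tlr3 in aPD1 against isotype without isotype replicate 1 (0.0015, adjusted p = 0.995, edgeR, and -0.11 to 0.0015 over the tumors left out). Tlr2, Tlr7, Tlr8 and Tlr9 in aPD1 against isotype lost their call only in the first set. Tlr5 has the fewest counts, 20 to 140 per tumor, and the part of depth in its unstable calls was not tested.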
